A study of Musca domestica with 29 samples.

Results

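Male-limited abdomen genes of the house fly, Musca domestica, were examined here as a set of 200 genes that stood highest in male over female abdomen while differing little between the sexes in the head. The members were chosen from the measured values. Of 16540 genes in each table, 16443 had a LOC identifier and 14136 of these were not assigned to Muller element A, which is chromosome III of the house fly, or element F, its X chromosome. Among them 2069 genes had a normalized count of at least 200 in every male abdomen library, and 1805 of those had a head sex ratio between -1 and 1. The sex ratio is the log2 of the male mean plus 1 over the female mean plus 1, and the 200 genes with the highest abdomen sex ratio were taken. Sex ratios below are therefore a description of how the genes were picked and are given without a test.

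RNA-seq of poly(A) RNA had been carried out on abdomen and head dissected from single flies, in a stranded library design. The 29 libraries came from 4 male genotypes with 3 replicates per tissue, from 2 female abdomens and from 3 female heads. YM males (strain IsoCS) carried the proto-Y chromosome YM, and YM(III) males (strain bwbCS) carried YM together with 1 different copy of chromosome III. IIIM #1 males (strain CS) and IIIM #2 males (strain CSrab) carried the proto-Y chromosome IIIM. Males were labelled as isogenic apart from these chromosomes, and females as isogenic among themselves. Female abdomen replicate 1 was IsoCS and replicate 2 CSrab, while the female heads were IsoCS, CSrab and CS in the order of their numbers. The sources give neither age nor rearing of the flies. Each genotype was 1 strain, so replicates measure the spread among flies of that strain, and a strain and its proto-Y chromosome cannot be told apart. Labels describe the replicates as biological.

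A proto-Y chromosome is a young male-determining chromosome, and in the house fly several such chromosomes segregate in natural populations. In insects the abdomen of a male holds the testes and the ducts and glands that make seminal fluid, and that of a female is largely filled by ovaries. Genes read in male abdomen and nowhere else are typical of the testis and the male reproductive tract, while muscle, fat body, gut and epidermis are found in both sexes. In whole abdomens, fewer cells of a type and less RNA per cell cannot be told apart. All 200 members carry LOC identifiers with no product name in the tables used here, so no role is given for any of them.

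Depth differed widely in abdomen, from 0.789 to 43.5 megareads (M reads) in the 12 male libraries, against 30.5 and 13.9 M reads in the females. YM replicate 2 and IIIM #2 replicate 2 each had 0.79 M reads, and the 4 libraries of replicate 3 had 17.6 to 43.5 M reads against 0.789 to 8.58 M reads in the others. Head libraries had 5.80 to 39.2 M reads in males and 28.99 to 29.84 M reads in females. The ovary-deposited transcript bcd was at 181 and 78.2 in female abdomens and at 0 to 3.41 in male ones. The yolk protein gene yp3 was at 2460 and 3487 in female abdomens against 49.3 to 789 in male ones.

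The name male-limited held for a minority of the members. Both female abdomens held reads for 183 of the 200 genes, and 10 genes had 0 reads in both. In heads, 167 members had a mean of at least 200 over the 12 male heads, 11 lay between 10 and 200, and 22 were under 10. Of the 1869 other genes that met the abdomen floor of 200, 97.59% had a male head mean of at least 200, against 83.5% of members. Under 10 were 0.91% of those genes, against 11% of members. Most of the set consists of genes read in the head of both sexes and in the male abdomen, at a low level in the female abdomen. The 22 with a male head mean under 10, the low-head members below, include 10 with 0 reads in both female abdomens and 3 at 10 or more in each, and the 167 at 200 or more are the high-head members.

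**Figure D1:**
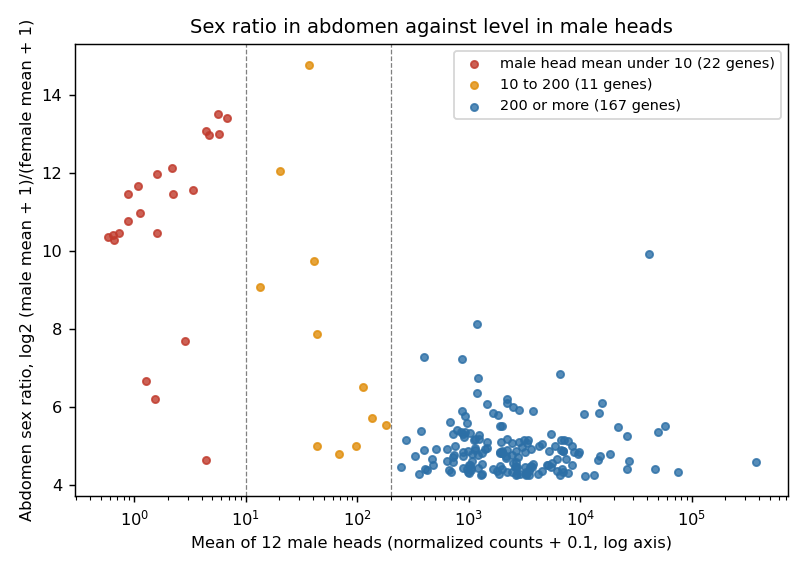
Each point is 1 of the 200 members, placed by the mean normalized count of 12 male heads (x axis, log) and by its abdomen sex ratio on the log2 scale (y axis). The 22 members with a head mean under 10 have a median ratio of 11.23, and the 167 at 200 or more have a median of 4.82.

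The abdomen sex ratio ran from 4.25 to 14.78 with a median of 4.89 on the log2 scale, against a median of 0.57 over 11486 genes measured in abdomen. Low-head members had a median of 11.23 and a range from 4.66 to 13.50. High-head members had a median of 4.82 and reached 9.92. Of the 20 members at 10 or more, 18 were low-head members, and 161 of the 200 lay under 6. At the lower end the last genes inside were LOC101891671 at 4.26, LOC101896048 at 4.26 and LOC101901277 at 4.25. The first outside were LOC101900112 at 4.24, LOC101898932 at 4.24 and LOC101894396 at 4.24, so the edge of the set does not mark a gap. The head limit left out 59 genes above this edge, LOC101888455 with an abdomen sex ratio of 15.38 and LOC101890350 with 15.34 among them.

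LOC101889585, on element D, had the highest sex ratio and the highest male abdomen level. Its normalized counts were 34903, 38300 and 39477 in YM, 156438, 215717 and 120685 in YM(III), 109835, 54883 and 67906 in IIIM #1, and 95156, 64352 and 82105 in IIIM #2. All 3 YM abdomens lay below every other male abdomen. The females were at 3.93 and 0.447, which rest on 24 reads and 1 read, so the male mean of 89980 was 41095-fold higher. In male heads it ranged from 0 to 121 with a median of 22.2, and the 3 female heads were at 44.5, 3.77 and 15.1.

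Except for LOC101896297, the next members by sex ratio were nearly silent outside the male abdomen. LOC109612469, on element E, ranged from 6634 to 23731 in male abdomens with a median of 10254, and no read was found in either female. Set against 3 reads in the shallower female library, its male mean was at least 8628-fold higher. LOC109614170 and LOC101895510 also had no female reads and were at least 3370-fold and at least 3010-fold higher by the same floor. LOC109612143 had 2 reads in the deeper female library and none in the other, with 1121 to 41693 in males. LOC101889060 and LOC109613172 each had 1 read in the females together, with male abdomen means of 9341 and 8796. LOC101889368, on element D, had 940.5 to 33270 in males and 5 reads in the females. LOC101896297 was 6810-fold higher in males, with a male head mean between 10 and 200. LOC109614193 had 537 to 11407 in males with 1 female read. Female counts this small set only the order of size of a fold.

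**Figure D2:**
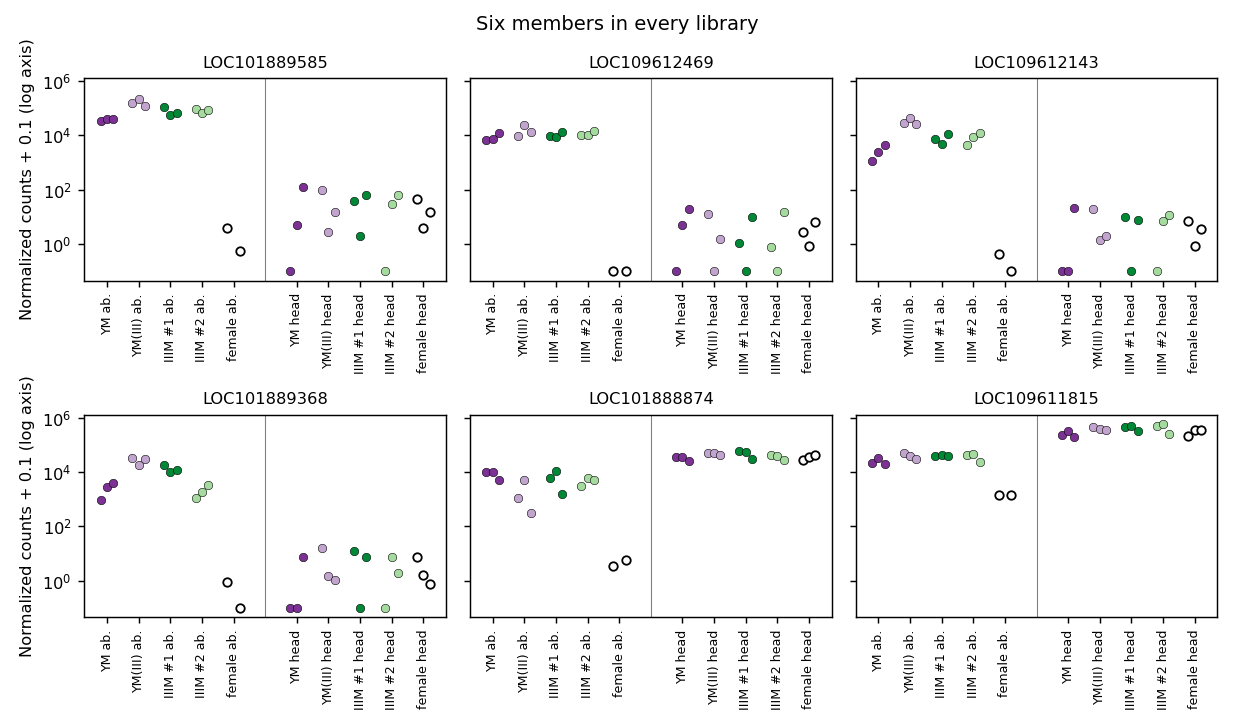
Normalized counts plus 0.1 (log axis) of 6 members in every library, with 3 points for each male genotype in abdomen and head and open circles for females. LOC101889585, LOC109612469, LOC109612143 and LOC101889368 stay at or under 121 in all heads, while LOC101888874 and LOC109611815 are high in heads of both sexes.

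All 167 high-head members had reads in every head. LOC109611815, on element D, had the highest head level, with a mean of 376997 over male heads and 208587, 341975 and 354044 in female heads. In abdomen it ranged from 19217 to 51866 in males and was at 1465 and 1468 in females, a 24.0-fold difference of means. LOC101900721 had a male abdomen mean of 57638 and a male head mean of 50236, with 2139 and 656 in female abdomens. LOC101900934 was similar, with 34498 in male abdomen, 46606 in male head and 2205 and 1055 in female abdomens. LOC101895998 and LOC105262393 had male head means of 74652 and 57318. These 5 genes had reads in every library.

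A pair of genes combined a large abdomen ratio with other patterns. LOC101888874, named after its values were seen, had the highest abdomen sex ratio of the high-head members at 9.92. It was at 3.28 and 5.81 in female abdomens and from 299 to 10755 in male ones, yet at a mean of 41037 in male and 34594 in female heads. LOC101898612 had one of the 5 highest male abdomen means, 29809, and was 877-fold higher than in females, with a male head mean of 40.6.

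Summed over members, the set made up 9.49 to 15.2% of the reads of a male abdomen library, with a median of 10.9%, against 0.507% and 0.287% in the female abdomens. In heads these 200 genes made up 5.02 to 6.50% in males and 6.19 to 6.76% in females. The low-head members accounted for 0.650 to 2.59% of a male abdomen library and for 0.00190% and 0.00157% of the female ones. Across heads they had 4 to 322 reads in total per male library. The highest head sums were 322 reads in YM replicate 3, 186 in IIIM #2 replicate 3 and 150 in IIIM #1 replicate 3, and female heads had 67, 22 and 49. As a percent of the library these 3 heads were also the highest, while the deepest head, YM(III) replicate 3, had 44 reads.

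**Figure D3:**
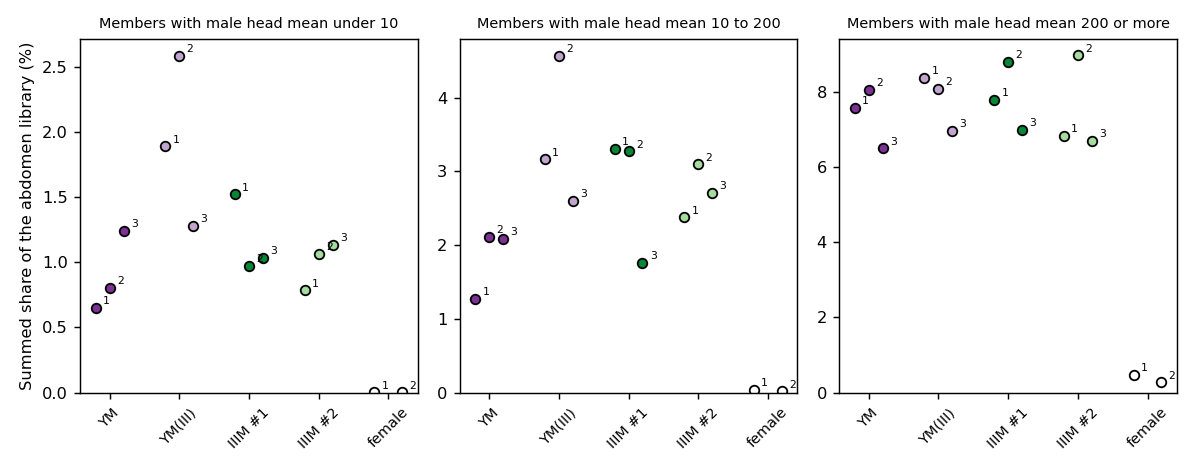
Summed share of each abdomen library (y axis, percent) taken by members of 3 head classes, with 1 point per library labelled by replicate number. The low-head members take up to 2.59% in YM(III) replicate 2 and under 0.002% in both females, and the high-head members take 6.50 to 8.97% in males.

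The female abdomens, which differ in strain and in depth, differed from each other in the members. Female replicate 1 was above replicate 2 for 155 of the 200 genes, against 734 of 1869 other genes that met the floor of 200. The median difference was 0.60 on the log2 scale in members and -0.12 in the other floor genes. Each sex ratio leans on these females: choosing the set without female replicate 1 kept 177 of the members and without replicate 2 kept 176.

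Muller element assignments were counted without a test. Members fell on element B in 33 cases, C in 46, D in 32 and E in 54, and 35 (17.5%) had no assignment. Among the 1869 other floor genes 8.94% had none. Of the 22 low-head members 15 had no element, 6 were on E and 1 was on D. Had elements A and F been admitted, 25 genes on A and 2 on F would have entered the 200.

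Some members lay side by side in the genome. In the reference gene table for assembly Musca_domestica.polishedcontigs.V.1.1, which need not be the build behind the counts, 185 members were found and 15 were not, and 12 neighbouring pairs joined 20 genes. That is 10.81% of the members found, against 35.31% of the other floor genes found, a larger set, so the shares are not directly comparable. Pairs within the low-head members joined 42.86% of the 14 found, and pairs within the high-head members 5% of the 160 found. The top gene LOC101889585 lies next to LOC101889368, and both had their highest genotype mean in YM(III). The low-head genes LOC109614194, LOC109614193, LOC109614171 and LOC109614170 form a run of 4, and LOC109613679 lies next to LOC109613680. Across the 12 male abdomens, the correlation of log values was 0.95 for LOC109614194 with LOC109614193, 0.91 for LOC109613679 with LOC109613680 and 0.67 for LOC101889368 with LOC101889585. These correlations share libraries and their depths, and how the authors' counting treated reads shared between similar neighbours is not known.

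Variation among male abdomens was wider than in other floor genes. The coefficient of variation over 12 libraries had a median of 41.8% in members and 25.8% in the others. LOC101888576 varied most at 163%, followed by LOC101889812 at 119% and LOC101898644 at 111.5%. LOC101900611 varied least at 13.0%, with 582 to 925 in every male abdomen, followed by LOC101893583 at 15.6% and LOC101890596 at 16.9%. Members did not vary as 1 block: the median correlation of a member with the mean of the rest was 0.34, against 0.36 for the other floor genes, and it was 0.65 within the 22 low-head members. The genes most like LOC101889585 over the 12 male abdomens, by Pearson correlation of log values, were LOC101889483 at 0.97, LOC101889060 at 0.95, LOC101890233 at 0.94, LOC101899510 at 0.91 and LOC101901326 at 0.91, of which LOC101889060 is a member.

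The genotypes were compared with limma on log2 values, with adjustment over all 11342 genes tested in male abdomens. YM and YM(III) share the proto-Y and differ in 1 copy of chromosome III, and all members lie off that chromosome or have no assignment. Between them 12 of the 200 members (6.0%) passed an adjusted p of 0.05, against 9.23% of all genes tested and 58 of the 1869 other floor genes (3.1%). Of the 12, 10 were lower and 2 higher in YM, while in the background 1.68% of genes were lower and 7.56% higher. The other floor genes were also called lower more often than higher, 38 against 20. The median log2 difference was -0.52 in members, -0.30 in the other floor genes and -0.04 over all genes. With same-numbered replicates treated as blocks, 44 members (22%) passed, 41 lower and 3 higher in YM, close to the 21.0% of all genes and 20.9% of the other floor genes in that fit.

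LOC109612143 had the largest called change. It was at 1121, 2519 and 4378 in YM and at 28005, 41693 and 25902 in YM(III), so the genotypes did not overlap, and the log2 difference was -3.75 (SE 0.533, limma adjusted p = 0.00382). Both IIIM genotypes lay between, at 4566 to 11911. LOC109612145, which was singled out after its values were seen, was at 1058, 766 and 4476 in YM and at 7236, 16612 and 10017 in YM(III). Its log2 difference was -2.79 (SE 0.620, limma adjusted p = 0.0218), again with no overlap.

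LOC101889368 was at 941, 2695 and 3796 in YM against 33270, 18416 and 29650 in YM(III). The log2 difference was -3.63 (SE 0.554, limma adjusted p = 0.00521). IIIM #1 sat near YM(III), at 18481, 9970 and 12236, and IIIM #2 near YM, at 1108, 1778 and 3413. Between those IIIM genotypes the log2 difference was 2.80 (SE 0.554), but its limma adjusted p was 0.381 over all genes. For its neighbour LOC101889585 the difference between YM and YM(III) was -2.09 (SE 0.331, limma adjusted p = 0.00594), with the values given above, and for LOC101889060 it was -2.29 (SE 0.484, limma adjusted p = 0.0176).

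Among members that are also read in heads, LOC101890852 was at 6958, 14985 and 8596 in YM and at 30009, 28559 and 22778 in YM(III). Its log2 difference was -1.48 (SE 0.372, limma adjusted p = 0.0335). LOC101891175 was at 372 to 559 in YM and 849 to 1326 in YM(III), a log2 difference of -1.31 (SE 0.278, limma adjusted p = 0.0176). LOC101897306 went the other way, at 959, 873 and 555 in YM against 266, 316 and 230 in YM(III), with a log2 difference of 1.53 (SE 0.262, limma adjusted p = 0.00814). LOC101890605 was also higher in YM, by 1.55 (SE 0.429, limma adjusted p = 0.0481). In all 4 genes the libraries of the genotypes did not overlap.

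Without YM replicate 2 and IIIM #2 replicate 2, the shallow libraries, 4 members passed (2%, against 2.22% of all genes), all lower in YM. They were LOC109612143, LOC101889368, LOC101889585 and LOC101891175, and their limma adjusted p values then ranged from 0.0346 to 0.0473. Leaving out YM replicate 1 gave 4 calls (2%, against 2.27% of all genes). There were 6 without YM replicate 2 (3%, against 3.05%) and 7 without YM(III) replicate 1 (3.5%, against 4.65%). LOC101889060 missed the threshold without YM replicate 1, YM replicate 2, YM(III) replicate 1 or both shallow libraries, and on replicates 1 and 2 alone, with limma adjusted p from 0.0517 to 0.0725. LOC101891175 missed it without YM replicate 1 or YM(III) replicate 1, and LOC101890605 in 14 of 22 settings. In the authors' deposited table for bwbCS against IsoCS in abdomen, 18 of the 200 members had an adjusted p under 0.05, against 10% of the genes with a value, and 14 of the 18 were higher in bwbCS.

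By head class, 4 of 22 low-head members were lower in YM than in YM(III), LOC109612143, LOC109612145, LOC101889368 and LOC101889060, and none was higher. Of the 167 high-head members 5 were lower and 2 higher. Over all genes tested 1.68% were lower and 7.56% higher, and of the 1869 other floor genes 38 were lower and 20 higher. The classes were not compared by a test. Every YM abdomen lay below every YM(III) abdomen for 36 of the 200 members, against 11.6% of genes tested, and above for 6, against 17.7%. Among the other floor genes the counts were 412 below and 102 above of 1869, so the members (18.0% and 3.0%) did not exceed these genes (22% and 5.46%) in either.

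The direction of these calls was read in a set defined by a floor, and how far the floor sets it was not tested. A further 355 genes had a sex ratio at or above the edge, a head sex ratio within the limits and a male abdomen mean of at least 200, but fell under 200 in some male abdomen library and were left out. Of these, 162 had a male head mean under 10, against 22 low-head members kept. The lowest library was YM(III) replicate 3 for 138 of the 162. Their median normalized count was 866, 1022 and 378 in YM and 70.6, 256.6 and 13.1 in YM(III), with 141 of the 162 under 200 in YM(III) replicate 3 and 116 in IIIM #1 replicate 3. In the same limma fit 70 of the 162 left-out genes passed between YM and YM(III), 67 higher and 3 lower in YM. Over all 355 left-out genes 94 passed, 86 higher and 8 lower. Of all genes tested 9.23% passed, 7.56% higher and 1.68% lower. Genes kept by the floor cannot be very low in YM(III), and genes left out by it were low somewhere, so neither direction speaks for abdomen-limited genes as a whole. Choosing the 200 without the YM(III) males kept 146 members and raised the low-head members from 22 to 52.

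**Figure D4:**
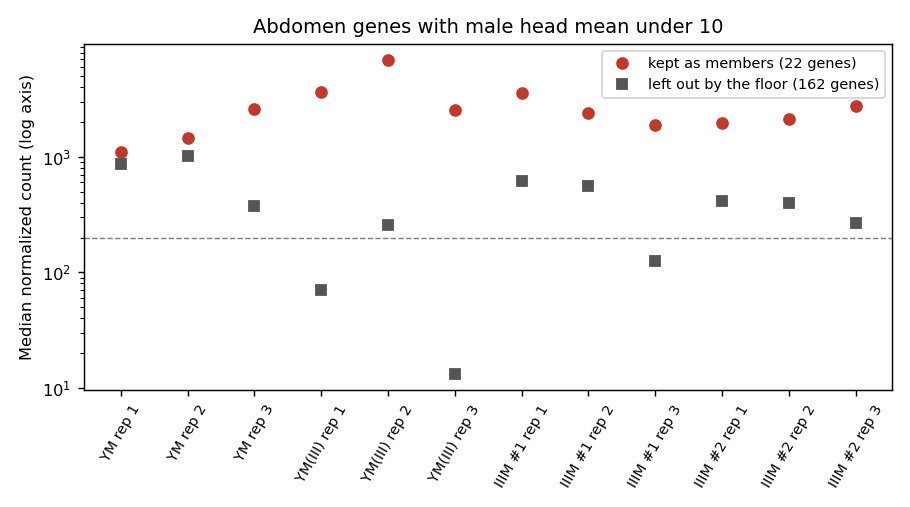
Median normalized count (y axis, log) in each male abdomen library of the 22 low-head members and of the 162 genes with a male head mean under 10 that the floor of 200 left out; the dashed line is the floor. The left-out genes have medians of 70.6 in YM(III) replicate 1, 13.1 in YM(III) replicate 3 and 125.7 in IIIM #1 replicate 3, and the members stay above 1000 in all libraries.

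Over all 4 genotypes, 5 members (2.5%) passed the limma test of any difference in abdomen, against 2.72% of genes. They were LOC101889368 (adjusted p = 0.0121), LOC109612143 (0.0246), LOC101890852 (0.0323), LOC101889585 (0.0350) and LOC101897306 (0.0446). The count was 1 without YM replicate 1, YM replicate 2 or YM(III) replicate 3, 2 without YM(III) replicate 1, IIIM #1 replicate 2 or any IIIM #2 replicate, 3 without IIIM #1 replicate 1 and 8 without IIIM #1 replicate 3. Of all genes, 0.348 to 1.11% passed in the fits with 1 member, 1.06 to 1.64% with 2, 1.8% with 3 and 5.16% with 8. Without both shallow libraries 0 members passed, against 0.0809% of all genes. All 5 members were lower in YM than in YM(III) except LOC101897306, which was higher.

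The pooled proto-Y types gave no limma call among members. Between both YM and both IIIM genotypes 0 of the 200 passed in limma, against 0.0265% of all genes, and 13 had an unadjusted p under 0.05. The median log2 difference of members was -0.13, and DESeq2 on the recovered reads called 2 and edgeR 0. Between IIIM #1 and IIIM #2 limma called 0 members, against 0.0441% of all genes, with 3 at an unadjusted p under 0.05. The authors' deposited abdomen table, read at an adjusted p under 0.05, held calls in these comparisons. There 9 of 200 members passed for CSrab against CS, against 1.87% of genes with a value. The counts were 17 for CS against IsoCS (4.94% of genes) and 9 for CSrab against IsoCS (5.13%). For LOC101889585 the pooled difference was 0.01 (SE 0.234), and for LOC109612143 it was 0.18 (SE 0.377). In both genes the YM mean lay below and the YM(III) mean above those of the IIIM genotypes.

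In male heads 181 members passed the filter on low values, and the 19 that did not were low-head members. The limma test of any genotype difference called 0 of these, against 1.08% of 12060 genes, with 11 at an unadjusted p under 0.05. Between the pooled proto-Y types limma also called 0, against 0.473%, with 10 at an unadjusted p under 0.05. DESeq2 called 7 and 2 in these comparisons (3.87% and 1.1% of members, against 4.17% and 1.49% of all genes), and edgeR called 0 in both. With same-numbered replicates as blocks the counts were 6 and 2 (3.31% and 1.1%, against 2.95% and 1.04% of all genes). On replicates 1 and 2 alone they were 34 and 14 (19.2% and 7.91%, against 13.5% and 4.65%). The authors' deposited head table holds pairwise comparisons, read here at an adjusted p under 0.05. For bwbCS against IsoCS 29 of 177 members passed, against 7.37% of genes with a value. The counts were 11 of 177 for CS against IsoCS (3.18% of genes) and 19 of 179 for CSrab against IsoCS (4.24%). For CSrab against CS 19 of 181 members passed (5.96% of genes). The high-head members had pooled log2 differences from -1.19 to 1.49 in head, with a median of -0.02.

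Replicate 3 stood apart from replicates 1 and 2 in the members. In abdomen 102 of the 200 (51.0%) passed in limma, 40 higher and 62 lower in replicate 3, against 31.3% of all genes, 14% higher and 17.3% lower. Of the other floor genes 39.8% passed. The replicate number is all that the labels give about this contrast, and it goes with the depth stated above, so replicate number and depth cannot be told apart.

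Most of these calls were high-head members. Of those 167, 97 passed, 39 higher and 58 lower, while 2 of 22 low-head members passed. LOC101887940 was at 782, 993, 1141 and 953 in replicate 3 of the 4 genotypes and from 3101 to 6575 in the other 8 abdomens, a log2 difference of -2.36 (SE 0.157, limma adjusted p = 1.07e-05). The groups did not overlap. LOC101889990, a low-head member, was at 232 to 520 in replicate 3 and 1454 to 4573 in the rest, with a log2 difference of -3.04 (SE 0.245, limma adjusted p = 3.27e-05). LOC101901048 fell by 1.97 on the log2 scale, LOC101893179 by 1.24 and LOC101890817 by 1.18 in limma. In the other direction LOC101888576 was at 13121, 46692, 18573 and 8332 in replicate 3 against 531 to 3451 in the rest, a log2 difference of 3.80 (SE 0.522, limma adjusted p = 0.000617). LOC101898644 was higher by 2.95, LOC101892998 by 1.91, LOC101889119 by 1.58 and LOC101889684 by 1.11. Among the left-out genes with low head levels 143 of 162 passed, against 31.3% of all genes, with 136 lower and 7 higher in replicate 3. These genes were left out for a low library, and the lowest was YM(III) replicate 3 for 138 of them. Their median was lowest in replicate 3 also in YM (378 against 866 and 1022), IIIM #1 (125.7 against 621.3 and 559.5) and IIIM #2 (268.9 against 414.2 and 396.1). How far the picking sets their direction was not tested.

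Head libraries of replicate 3 stood apart too. There 104 of 181 members (57.5%) passed in limma, 57 higher and 47 lower, against 49% of all genes, 24.6% higher and 24.4% lower. LOC101894202 was at 113, 197, 115 and 58.2 in replicate 3 of the 4 genotypes and from 939 to 3436 in the other 8 heads. The log2 difference was -4.01 (SE 0.251, limma adjusted p = 2.48e-06). LOC101901048 was at 234, 532, 224 and 204 against 1894 to 4380, a log2 difference of -3.25 (SE 0.142, limma adjusted p = 3.44e-07). Neither gene overlapped between the groups. LOC101894542 fell by 2.01, LOC101898868 by 1.82 and LOC101891747 by 1.39. LOC101901320 was at 2170, 1413, 2166 and 2697 in replicate 3 and from 457 to 668 in the rest, higher by 1.93 on the log2 scale, followed by LOC101895462 by 1.73, LOC101897255 by 1.48, LOC101901690 by 1.45 and LOC101896755 by 1.42.

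The members called in both tissues numbered 69, which is 67.65% of the abdomen calls and 66.35% of the head calls. Of these, 31 were lower in replicate 3 in both tissues, 23 were higher in both and 15 moved in opposite directions. Over all genes 1873 were called in both, 52.76% of the abdomen calls and 31.69% of the head calls, and the shares in the other floor genes were 61.64% and 45.71%. Calls in both went the same way for 78.3% of the members, 84.5% of the other floor genes and 83.3% of all genes, and none of these differences was tested. LOC101901048 was lower in both, with log2 differences of -1.97 in abdomen and -3.25 in head. LOC101894202 changed in head, while in abdomen its log2 difference was -0.21 (limma adjusted p = 0.378). LOC101887940 had the reverse pattern, with -0.19 in head (limma adjusted p = 0.114). The tissues were normalized separately and a difference between them was not tested.

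**Figure D5:**
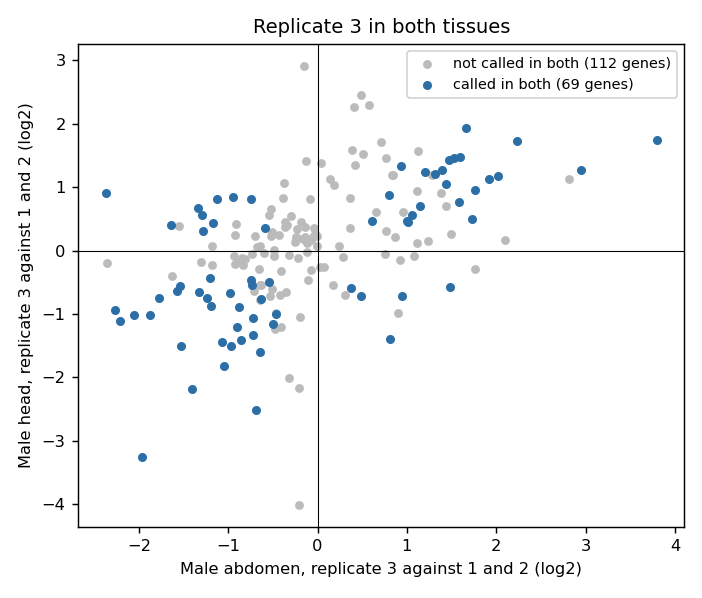
Log2 difference of replicate 3 from replicates 1 and 2 in male abdomen (x axis) and male head (y axis) for the 181 members tested in both, with blue points for the 69 called in both. Most blue points lie in the lower left, 31 genes, and the upper right, 23 genes.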

How the data were processed

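The authors' deposited tables, 1 per tissue, hold normalized counts per library, a signal of read counts divided by 1 factor per library. Per the submitters' processing notes, the tools were HTSeq 0.9.1, HISAT2 0.12.2, DESeq2 1.16.1 and CASAVA 1.8, without stated roles, and the sources used here give no build. Every value came out as whole reads, 100% within a tolerance of 0.001, which gave the depths. The tables also hold the authors' log2 fold changes and adjusted p-values per comparison, deposited beside the values. The members, head classes and lists were chosen with earlier results of these data known.

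Genes at 10 or more in at least 3 of the 12 male libraries were tested as log2(value + 1) with limma 3.58.1 in R 4.3.3, with a mean per genotype (and a term for replicate 3 against 1 and 2 in that contrast), a variance trend and robust moderation, two-sided, adjusted by Benjamini-Hochberg over all genes. Differences on this scale understate changes of low genes. Because the deposited values are normalized, DESeq2 1.42.0 and edgeR 4.0.16 served as alternatives, on the recovered reads. Descriptions and plots came from Python 3.11.15 with matplotlib 3.10.9. The script was tested on simulated data. Intervals and floors of 3 reads cover counting error only, and where reads of overlapping or near-identical genes were split is not known.

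Groups came from the sample titles, and n counts libraries. No libraries were identical. The replicate numbers in the titles were checked for pairing through the correlation of deviations from genotype means. These were 0.17, 0.32 and 0.60 for YM with YM(III) in abdomen and 0.287 to 0.681 in head, all over 0.1, so the blocked counts are given there. Over all genotype pairs in abdomen 17 of 18 were over 0.1 and the lowest was 0.069.

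Named genes were the 10 highest sex ratios, the 5 highest male abdomen and male head means, 3 on each side of the edge, the 3 highest and 3 lowest coefficients of variation and up to 5 called genes per direction in each comparison. LOC101888874, LOC109612145, the neighbours and the left-out genes were named after their values were seen. Families, pathways and motifs planned for the members were not analysed here. Of 12 marker symbols 4 were found in the tables. Pdf, a neuropeptide gene, was at 411 to 1620 in male heads and 0 to 8.80 in male abdomens, and lysozyme at 0 to 399 in male abdomens.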

Additional observations from a re-analysis of the deposited data

How the results depend on the processing

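Replacing the scaling by TMM, dropping the filter, raising it to a mean of 50, or pseudocounts of 0.1 or 5 kept every total of called members within 1.5 times, as did edgeR; the 2 members higher in YM became 1 with no filter, with a mean of 50 and with a pseudocount of 0.1. DESeq2 called 17 members for any abdomen difference (8.5%, against 12.1% of all genes), 24 for YM against YM(III) (12%, against 17.4%), 2 for the pooled proto-Y types (1.0%, against 1.19%), 1 between the IIIM genotypes (0.5%, against 0.229%), and 7 and 2 in the head comparisons. The replicate block gave 24 for any abdomen difference (12%, against 13.1% of all genes), 44 for YM against YM(III) (22%, against 21.0%), and 6 and 2 in head. It called 0 for the other abdomen comparisons. Replicates 1 and 2 alone gave 22 for YM against YM(III) (11.0%, against 11.0% of all genes) and 34 and 14 in head. Without the 2 shallow libraries, 0 passed for any abdomen difference (0.0809% of all genes) and 4 for YM against YM(III) (2.0%, against 2.22%). The causes of these shifts were not tested. Leaving out 1 replicate at a time gave 1 to 8 calls for any abdomen difference, 4 to 13 for YM against YM(III), 0 to 0 for the pooled types and for the IIIM genotypes, 71 to 101 for replicate 3 in abdomen, 0 to 1 and 0 to 0 in head, and 87 to 123 for replicate 3 in head. With 1 replicate left out, 0.348 to 5.16% of all genes passed for any abdomen difference and 2.27 to 11.6% for YM against YM(III). In the fits on all 12 male libraries, 31.3% of all genes passed for replicate 3 in abdomen and 49% in head. In head 1.08% passed for any difference and 0.473% for the pooled types. Of the set itself, a floor of 500 kept 105 members. Leaving out a female replicate, or the male abdomens of replicate 3 (an alternative chosen after seeing the data), kept 136 to 177 members and gave 21 to 40 low-head members, and leaving out the YM(III) males gave 52. No result reversed. For the named genes, 256 values under alternatives other than leaving out 1 replicate kept their call, and 14 lost it; with 1 replicate left out, 335 kept it and 49 lost it. Depth limits the female levels, since 1 read is the whole signal for several low-head members, and the male levels in the 2 shallow libraries.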
